A study of Mus musculus with 27 samples.

Results

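The interferon transcription factors and receptors followed here were 8 genes, *Ifnar1*, *Ifnar2*, *Stat2*, *Irf9*, *Stat3*, *Irf3*, *Irf7* and *Irf1*, out of 23304 mouse genes with a single named locus. They were chosen by name for their place in interferon signalling, and each was read in every library from the row named for it or covering its locus. RNA-seq had been done on immortalized mouse embryonic fibroblasts (iMEFs) carrying a conditional *Setdb1* allele, in 27 libraries from 3 experiments. *Setdb1* encodes a histone H3 lysine methyltransferase that silences retroelements, and 4-hydroxytamoxifen (4OHT) triggers its deletion in these cells.

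Type I interferons bind a receptor at the cell surface made of the IFNAR1 and IFNAR2 chains, whose kinases JAK1 and TYK2 phosphorylate STAT proteins. STAT2 and IRF9 enter the nucleus in a complex that binds interferon-stimulated response elements (ISRE), while other STAT dimers bind gamma-activated sites (GAS). Fibroblasts make interferon beta when sensors of nucleic acids activate IRF3 and IRF7, and IRF7 is itself an interferon-induced gene.

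The total RNA experiment used ribosomal RNA-depleted libraries of untreated cells, of cells harvested on day 5 after 4OHT on the first 4 days, and of long-term knockout (KO) cells labelled as kept for more than 2 weeks, with 3 libraries per group. The published methods give a shorter minimum for that time, and the label was followed. The siRNA experiment crossed 4OHT with siRNA against *Dnmt1*, which encodes the maintenance DNA methyltransferase. Its groups were control siRNA (siCtrl), siDnmt1, 4OHT + siCtrl and 4OHT + siDnmt1, all transfected with siRNA and harvested on day 6, with 2 libraries per group. The inhibitor experiment compared untreated cells with cells given the histone deacetylase inhibitor trichostatin A (TSA) at 150 nM for 24 hours, the MEK inhibitor PD0325901 at 1 µM for the last 24 hours, 4OHT with harvest on day 6, or 4OHT + PD0325901, again with 2 libraries per group. Nothing in the labels says that replicates were separate cultures, so p-values measure only the spread between these samples. The experiments differed in library type and were normalised apart, and levels are therefore compared only within each.

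*Setdb1* transcripts were checked first. In the total RNA experiment *Setdb1* stood at 5.95, 5.53 and 5.16 FPKM (fragments per kilobase of transcript, scaled to library size) in the libraries labelled untreated, 4.16, 4.20 and 6.52 FPKM in those labelled 4OHT day 5, and 7.24, 7.32 and 6.96 FPKM in those labelled long-term KO. In the siRNA experiment it was 7.40 and 6.48 FPKM with siCtrl, 6.08 and 5.54 FPKM with siDnmt1, 7.58 and 5.00 FPKM with 4OHT + siCtrl, and 5.40 and 6.94 FPKM with 4OHT + siDnmt1. In the inhibitor experiment it was 8.76 and 10.1 FPKM in untreated cells, 9.56 and 9.0 FPKM with TSA, and 5.34 and 5.56 FPKM with PD0325901, while the libraries labelled 4OHT day 6 had 0 and 5.30 FPKM and both labelled 4OHT + PD0325901 were listed at 0, which can be a failed estimate. The labels were therefore not borne out at the level of whole-gene FPKM, which cannot show whether single exons were lost, and groups are named below as the libraries are labelled. Against untreated cells the log2 fold change of *Setdb1* was −0.19 in day 5 libraries (limma adjusted p = 0.401) and 0.37 in long-term KO libraries (limma adjusted p = 0.0764).

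*Dnmt1* followed its labels. It was 80.5 and 73.4 FPKM with siCtrl and 78.7 and 78.3 FPKM with 4OHT + siCtrl, against 12.2 and 10.6 FPKM with siDnmt1 and 12.2 and 11.4 FPKM with 4OHT + siDnmt1. The siDnmt1 libraries lay far below the others with no overlap, and the log2 fold change was −2.75 without 4OHT (limma adjusted p = 0.000164) and −2.72 with it (limma adjusted p = 0.000158). The library labelled PD0325901 replicate 2 carries a header line that reads 4OHT_PD_2, although its description and its labels give PD0325901 alone. Its values followed its label and not the header line. Of 11315 genes, 6.26% lay at least 2-fold from PD0325901 replicate 1, against 13.3 and 11.6% from the 4OHT + PD0325901 libraries. The median log2 difference of 19 interferon-stimulated target genes from untreated cells was 0.39 in it and 0.31 in PD0325901 replicate 1, against 6.00 and 6.56 with 4OHT + PD0325901, and *Ifnb1* was listed at 0 in it. It was kept with its label, and the counts of members that rest on it are given with and without it.

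Markers of the labelled cell type were present throughout. Of 10 fibroblast markers, 8 to 10 were measured in each library, each at 1 FPKM or more, with sums of 1890 to 2985 FPKM in total RNA, 3058 to 6684 FPKM in siRNA and 3650 to 7441 FPKM in inhibitor libraries. Of the fibroblast markers, *Col3a1* fell at day 5 (log2 fold change −1.47) and at day 6 (−3.76). Across the comparisons 1 of 9 fibroblast markers tested fell at day 5, 1 rose in long-term KO libraries against untreated and 2 against day 5. In siRNA libraries 1 of 10 rose and 1 fell with siDnmt1, and 4 fell with 4OHT under either siRNA. Without 4OHT + siCtrl replicate 2, the library described below, the counts for siDnmt1 were the same, while 6 fell with 4OHT + siCtrl and 8 with 4OHT within siDnmt1, and 1 fell in the interaction. In that fit *Cd68* rose with 4OHT within siDnmt1 (1.11) and with siDnmt1 within 4OHT (1.33), where 1 epithelial marker rose too. Without replicate 1 in its place, 4 fibroblast markers fell with 4OHT + siCtrl, where 2 haematopoietic and 2 epithelial markers rose, and 8 fell with 4OHT within siDnmt1, where *Cd68* rose. In that setting 1 fibroblast marker fell and 1 epithelial marker rose with siDnmt1 within 4OHT, and the counts for siDnmt1 were again the same. Of 10 tested in inhibitor libraries, 5 fell at day 6, 3 rose and 1 fell with PD0325901, 2 rose and 6 fell with TSA, 3 rose and 1 fell with PD0325901 within 4OHT, and 2 fell with 4OHT within PD0325901. Of 10 haematopoietic markers, 8 or 9 were measured in each library on rows of their own. They summed to at most 5.08 FPKM in total RNA libraries and at most 12.8 FPKM in siRNA libraries. The macrophage gene *Cd68* was the most abundant in every siRNA and inhibitor library. In total RNA it was so in only 2 of the 9 libraries, and in the others it shared a row with neighbours and was left out of the sum. *Cd3e*, which defines T cells, was listed at 0 in all 27 libraries. With TSA the haematopoietic markers summed to 69.3 and 63.0 FPKM, of which *Cd68* made up 66.9 and 60.5 FPKM, against 5.10 and 4.58 FPKM in untreated cells. The 5 epithelial markers summed to 34.7 and 41.2 FPKM with TSA, led by *Epcam* at 28.1 and 29.2 FPKM, against 1.15 and 1.44 FPKM in untreated cells. The 5 endothelial markers never passed 2.25 FPKM together. Of the few markers of these other cell types that passed the filter, 1 haematopoietic marker rose at day 5, and 1 haematopoietic and 1 epithelial marker fell in long-term KO libraries against untreated and against day 5. With siDnmt1 1 epithelial marker rose, with PD0325901 1 epithelial marker rose and 1 fell, and with PD0325901 within 4OHT 1 epithelial marker rose. The 1 endothelial marker tested rose at day 6, with each inhibitor and with 4OHT within PD0325901, while with TSA 2 haematopoietic and 3 epithelial markers rose as well. Other markers near 1 FPKM may likewise have passed the filter through the groups where they were high. The part of these markers in the results was not tested, and in bulk RNA fewer cells cannot be told apart from less RNA per cell.

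The pair of libraries labelled 4OHT + siCtrl stood apart from each other. Between them 1219 of 10580 genes (11.5%) differed by at least 2-fold, against 1.96 to 6.26% in the other pairs of replicates of the series. *Usp18*, an interferon-induced gene that dampens receptor signalling, was 136 FPKM in replicate 1 and 4.10 FPKM in replicate 2, against 7.25 and 8.62 FPKM with siCtrl. Among 19 interferon-stimulated target genes, the median log2 difference from siCtrl was 3.87 in replicate 1 and 0.05 in replicate 2. Counts of members, targets, upstream genes and markers called in the siRNA experiment are therefore given with all libraries and without each of this pair. For the interaction these counts are not all given, and the median over targets is shown instead. Other siRNA values are given with all libraries unless stated. Which of the pair is typical of the treatment was not tested. Over all genes replicate 2 was not a siCtrl profile, since 14.3 and 15.5% of genes lay at least 2-fold from the siCtrl libraries, which differed from each other at 2.51%. It lay nearest to replicate 1 by that measure, while replicate 1 lay nearer to 4OHT + siDnmt1, at 10.3 and 7.44%. Its *Dnmt1* level was that of control siRNA. Further genes lay on the side of its label, with *Socs3* at 8.77 FPKM against 19.6 and 24.1 FPKM with siCtrl and *Col1a1* at 416 FPKM against 1106 and 1148 FPKM. *Irf5* was 9.05 FPKM and *Ifnb1* 0.727 FPKM, both listed at 0 with siCtrl. Its haematopoietic markers summed to 11.3 FPKM, against 3.47 FPKM in replicate 1.

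Some members shared a row with a neighbour. *Irf9* lies 313 bp from *Rnf31*, and the pair was joined in 9 of 9 total RNA, 6 of 8 siRNA and 3 of 10 inhibitor libraries. *Stat2* was joined to *Pan2* in 1 total RNA and 1 inhibitor library, *Ifnar2* to *Il10rb* in 2 total RNA libraries, and *Ifnar1* to the transcript *A930006K02Rik* in 2 total RNA libraries. Where any library of an experiment joined a pair, both rows were summed in all of its libraries before testing, so these tests describe the pair. In the mm9 build the members lie at chr16:91485460-91510767 (*Ifnar1*), chr16:91373028-91405832 (*Ifnar2*), chr10:127707632-127729905 (*Stat2*), chr14:56222822-56228867 (*Irf9*), chr11:100748120-100800854 (*Stat3*), chr7:52253018-52258218 (*Irf3*), chr7:148449082-148452323 (*Irf7*) and chr11:53583516-53591876 (*Irf1*).

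**Figure D1:**
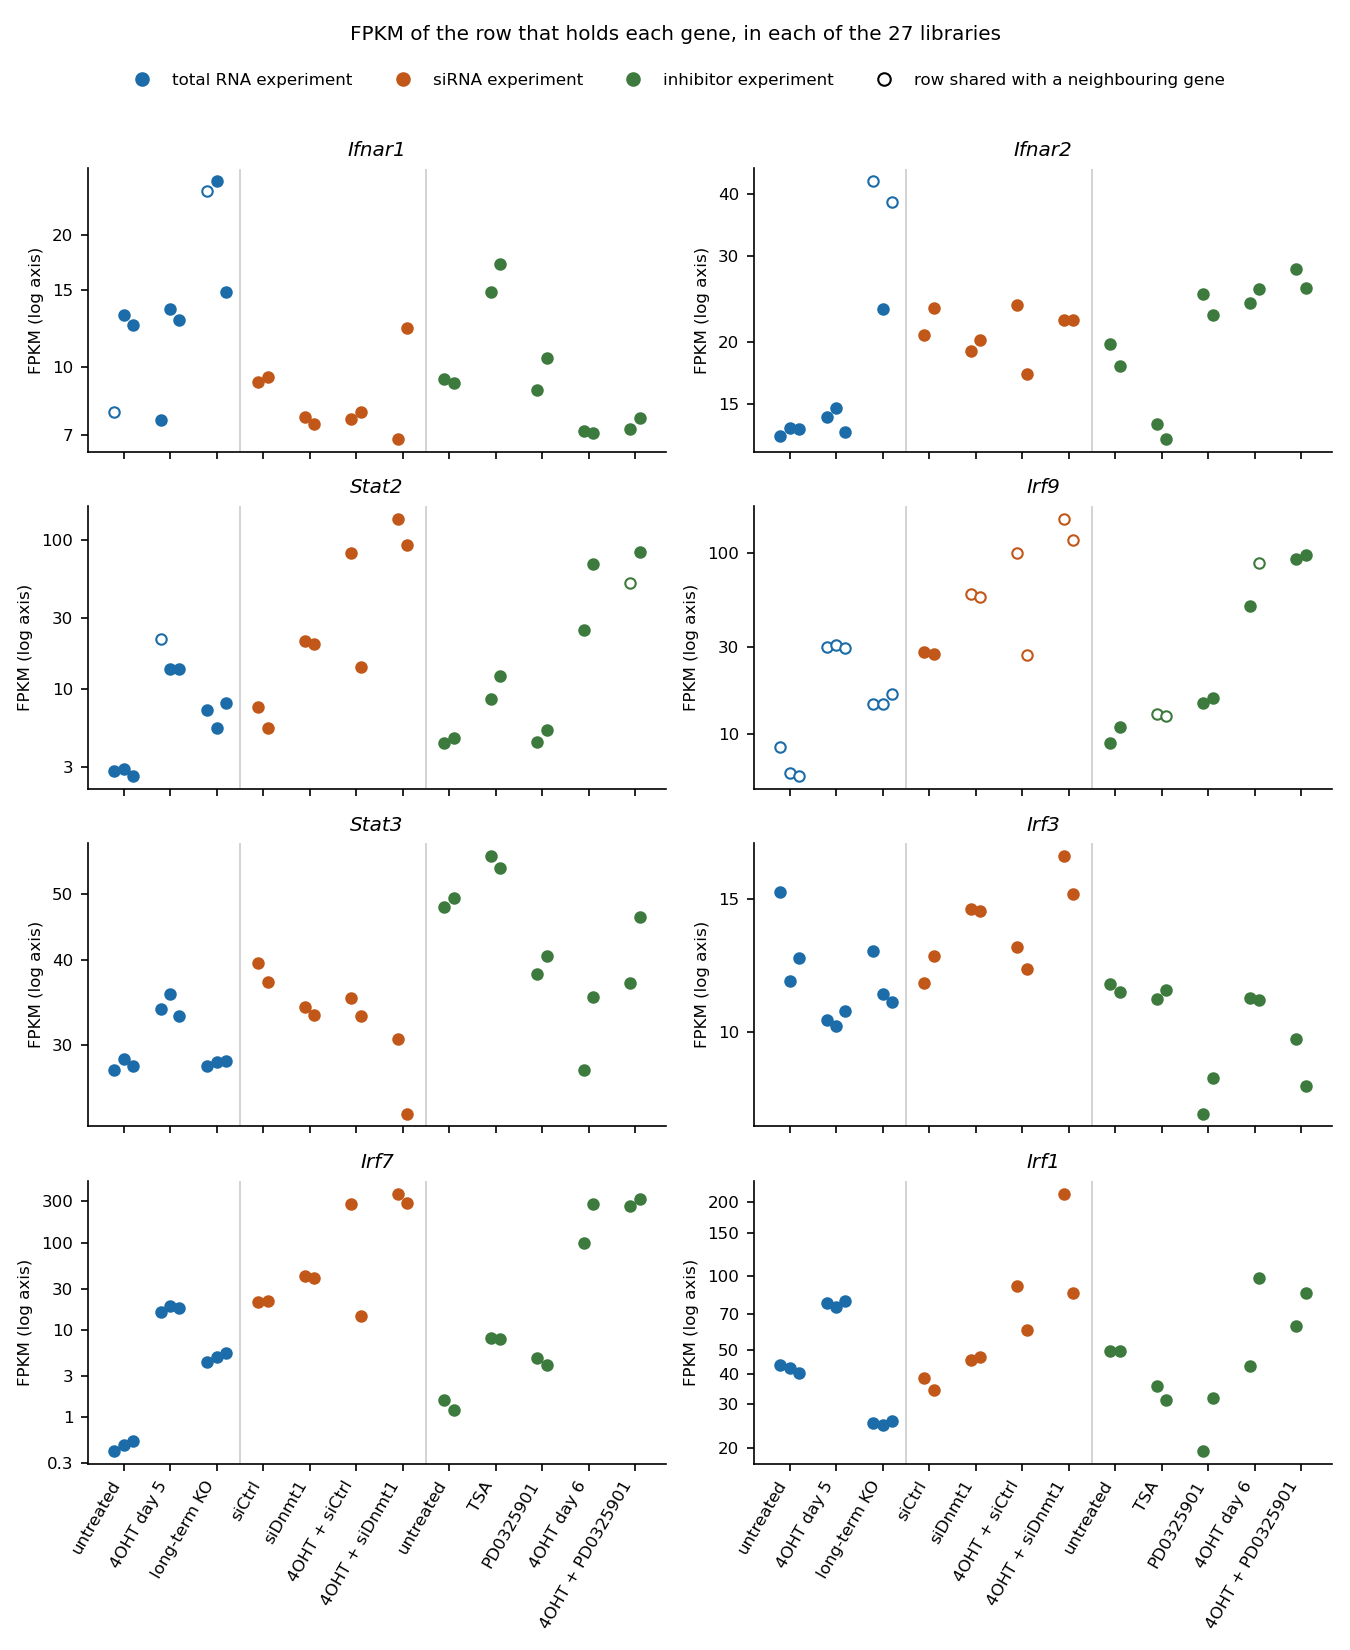
FPKM (log axis) of the row holding each of the 8 genes in each of the 27 libraries, by group; colours mark the experiment and open circles a row shared with a neighbouring gene. *Irf7* spans 0.411 to 19.2 FPKM in total RNA libraries, while *Stat3* stays between 27.5 and 35.6 FPKM there.

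With all libraries in the fit 5 members were called in at least 1 comparison, *Irf7*, *Irf1* and, on sums with a neighbour, *Irf9*, *Stat2* and *Ifnar2*. Their promoters were read from RefSeq on the GRCm38.p6 build to see which carried a short interferon motif. Each is the 250 bases before a start of the gene, 5′ to 3′ on the gene's strand, and for *Irf9* and *Irf1*, with 2 windows each, the first by position is shown. They lie at chr7:141266425-141266674 on the minus strand (*Irf7*), chr14:55603735-55603984 on the plus strand (*Irf9*), chr10:128270248-128270497 on the plus strand (*Stat2*), chr11:53769764-53770013 on the plus strand (*Irf1*) and chr16:91372533-91372782 on the plus strand (*Ifnar2*). Capitals mark the ISRE core GAAANNGAA, which in *Stat2* stands on the other strand, or the GAS letters TTCNNNGAA.
Irf7 promoter: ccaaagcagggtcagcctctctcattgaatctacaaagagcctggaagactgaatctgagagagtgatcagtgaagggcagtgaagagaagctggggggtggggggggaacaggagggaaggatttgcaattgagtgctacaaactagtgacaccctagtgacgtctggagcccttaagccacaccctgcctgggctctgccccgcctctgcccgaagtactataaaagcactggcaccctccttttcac
Irf9 promoter: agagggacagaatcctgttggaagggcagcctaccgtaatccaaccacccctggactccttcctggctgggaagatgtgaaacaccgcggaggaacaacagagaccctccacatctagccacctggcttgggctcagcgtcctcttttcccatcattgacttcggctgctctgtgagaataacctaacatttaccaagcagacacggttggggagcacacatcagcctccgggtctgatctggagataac
Stat2 promoter: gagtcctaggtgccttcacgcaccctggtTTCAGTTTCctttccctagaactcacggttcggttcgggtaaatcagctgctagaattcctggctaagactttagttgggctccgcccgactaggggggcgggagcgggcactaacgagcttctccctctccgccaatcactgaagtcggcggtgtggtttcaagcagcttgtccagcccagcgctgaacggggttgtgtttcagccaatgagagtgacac
Irf1 promoter: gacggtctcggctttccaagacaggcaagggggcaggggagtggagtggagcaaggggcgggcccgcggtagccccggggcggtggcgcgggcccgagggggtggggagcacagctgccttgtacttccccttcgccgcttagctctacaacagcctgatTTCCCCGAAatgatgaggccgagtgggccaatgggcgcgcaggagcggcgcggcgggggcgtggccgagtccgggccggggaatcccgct
Ifnar2 promoter: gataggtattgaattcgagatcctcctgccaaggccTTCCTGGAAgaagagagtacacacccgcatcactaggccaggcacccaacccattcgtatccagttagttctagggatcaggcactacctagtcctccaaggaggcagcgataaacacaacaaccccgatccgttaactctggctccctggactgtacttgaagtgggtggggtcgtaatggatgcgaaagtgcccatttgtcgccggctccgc

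All 8 members matched the RefSeq table, with 10 windows among them, each running from 250 bases before to 50 bases after a start. The ISRE core was found on either strand in 1 of these 10 windows, that of *Stat2* at position −221, and in 2812 of all 32851 windows (8.56%). It was in 10 of 18 windows of the interferon-stimulated target list (55.6%). The GAS letters were in 3 of the 10 windows, at −90 in *Irf1*, −214 in *Ifnar2* and −5 in *Ifnar1*, where the match spans the start, against 8.30% of all windows and 4 of 18 windows of the target list (22.2%). No match of either motif lay in the windows of *Irf7*, *Irf9*, *Irf3* or *Stat3*, and no matches of the 2 motifs overlapped in these windows. A match is a description of letters, and binding was not measured.

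**Figure D2:**
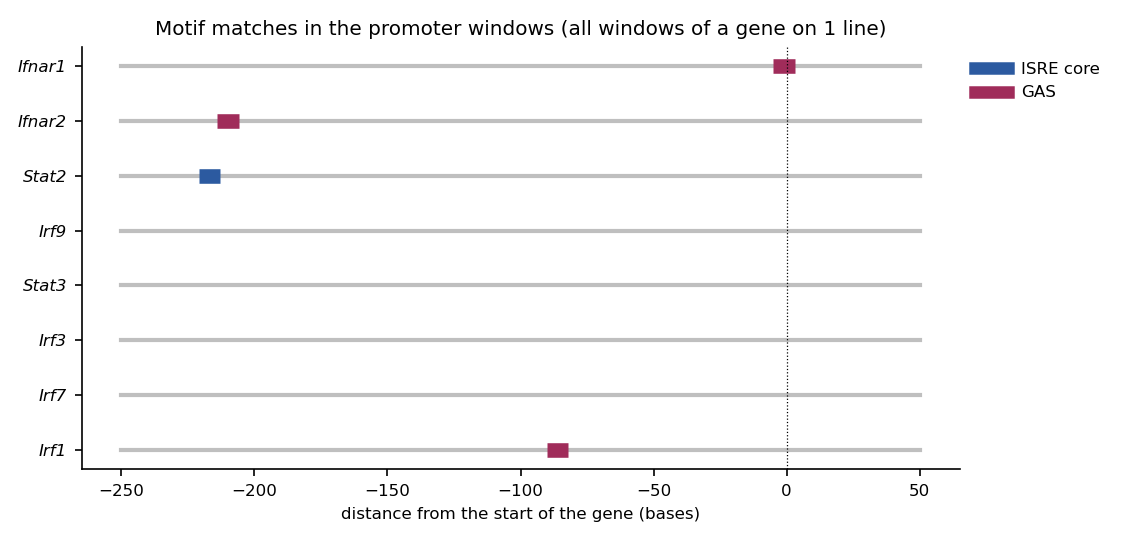
Motif matches in the promoter windows of the 8 genes, with distance from the start of the gene in bases on the horizontal axis and all windows of a gene on 1 line. The ISRE core appears once, in *Stat2*, and the GAS letters in *Ifnar2*, *Irf1* and *Ifnar1*.

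In the total RNA experiment, *Irf7*, *Irf9* and *Stat2* rose between untreated and day 5 libraries, which is 3 of 8 members against 3.49% of 8757 genes. A gene was called when its limma adjusted p was under 0.05 and its fold change at least 2 on the log2(FPKM + 0.1) scale, which understates the change of low genes. In long-term KO libraries *Irf7*, *Irf9* and the sum of *Ifnar2* and *Il10rb* rose against untreated cells, 3 of 8 members against 14.3% of genes. The calls of *Irf9* and *Stat2* in this and the inhibitor experiment likewise rest on sums with *Rnf31* and *Pan2*. Between day 5 and long-term KO libraries *Irf7* and *Irf1* fell, 2 of 8 members against 12.9% of genes. The comparisons of day 5 and of long-term KO libraries share their untreated controls.

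In the siRNA experiment none of the 8 members was called by limma in any of the 4 comparisons with all libraries in the fit. Against siCtrl, the siDnmt1 libraries had 0 of 8 members called, with 0 at an unadjusted p under 0.05, beside 4.82% of 10580 genes called and 2750 at that p. The 4OHT + siCtrl libraries had 0 called and 1 at that p, beside 6.04% of genes called and 3456 at that p. With 4OHT in both arms, siDnmt1 against siCtrl had 0 members called and 3 at that p, beside 1.46% of genes called and 2071 at that p. With siDnmt1 in both arms, 4OHT had 0 members called and 3 at that p, beside 5.63% of genes called and 3624 at that p. The interaction of 4OHT and siDnmt1 had 0 members called and 0 at that p, beside 0.198% of genes called and 1057 at that p.

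In the inhibitor experiment *Irf7*, *Irf9* and *Stat2* rose with 4OHT at day 6, 3 of 8 members against 11.1% of 11315 genes. *Irf7* also rose with each inhibitor alone, which is 1 of 8 members against 7.26% of genes with PD0325901 and 1 of 8 against 32.1% with TSA, counts of 1 gene that describe *Irf7* and not the members as a group. With PD0325901 in both arms, *Irf7*, *Irf9*, *Stat2* and *Irf1* rose with 4OHT, 4 of 8 members against 4.50% of genes. With 4OHT in both arms, PD0325901 gave 0 members called by limma and 2 at an unadjusted p under 0.05, beside 3.76% of genes called and 2557 at that p. Their interaction had 0 members called by limma and 1 at that p, beside 0.725% of genes called and 1799 at that p. Without PD0325901 replicate 2, limma called 0 members with PD0325901 alone, beside 7.67% of genes called and 3232 at that p. With 4OHT within PD0325901 it called 2, beside 2.75% of genes. They were *Irf7* at 5.92 (limma adjusted p = 0.00472) and *Irf9* at 2.36 (limma adjusted p = 0.00584). At day 6 and with TSA, whose compared groups kept both libraries, the counts remained 3 and 1, beside 11.4 and 32.3% of genes. Over their alternatives these adjusted p ran from 1.22e-05 to 0.00472 and from 4.15e-05 to 0.00610.

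**Figure D3:**
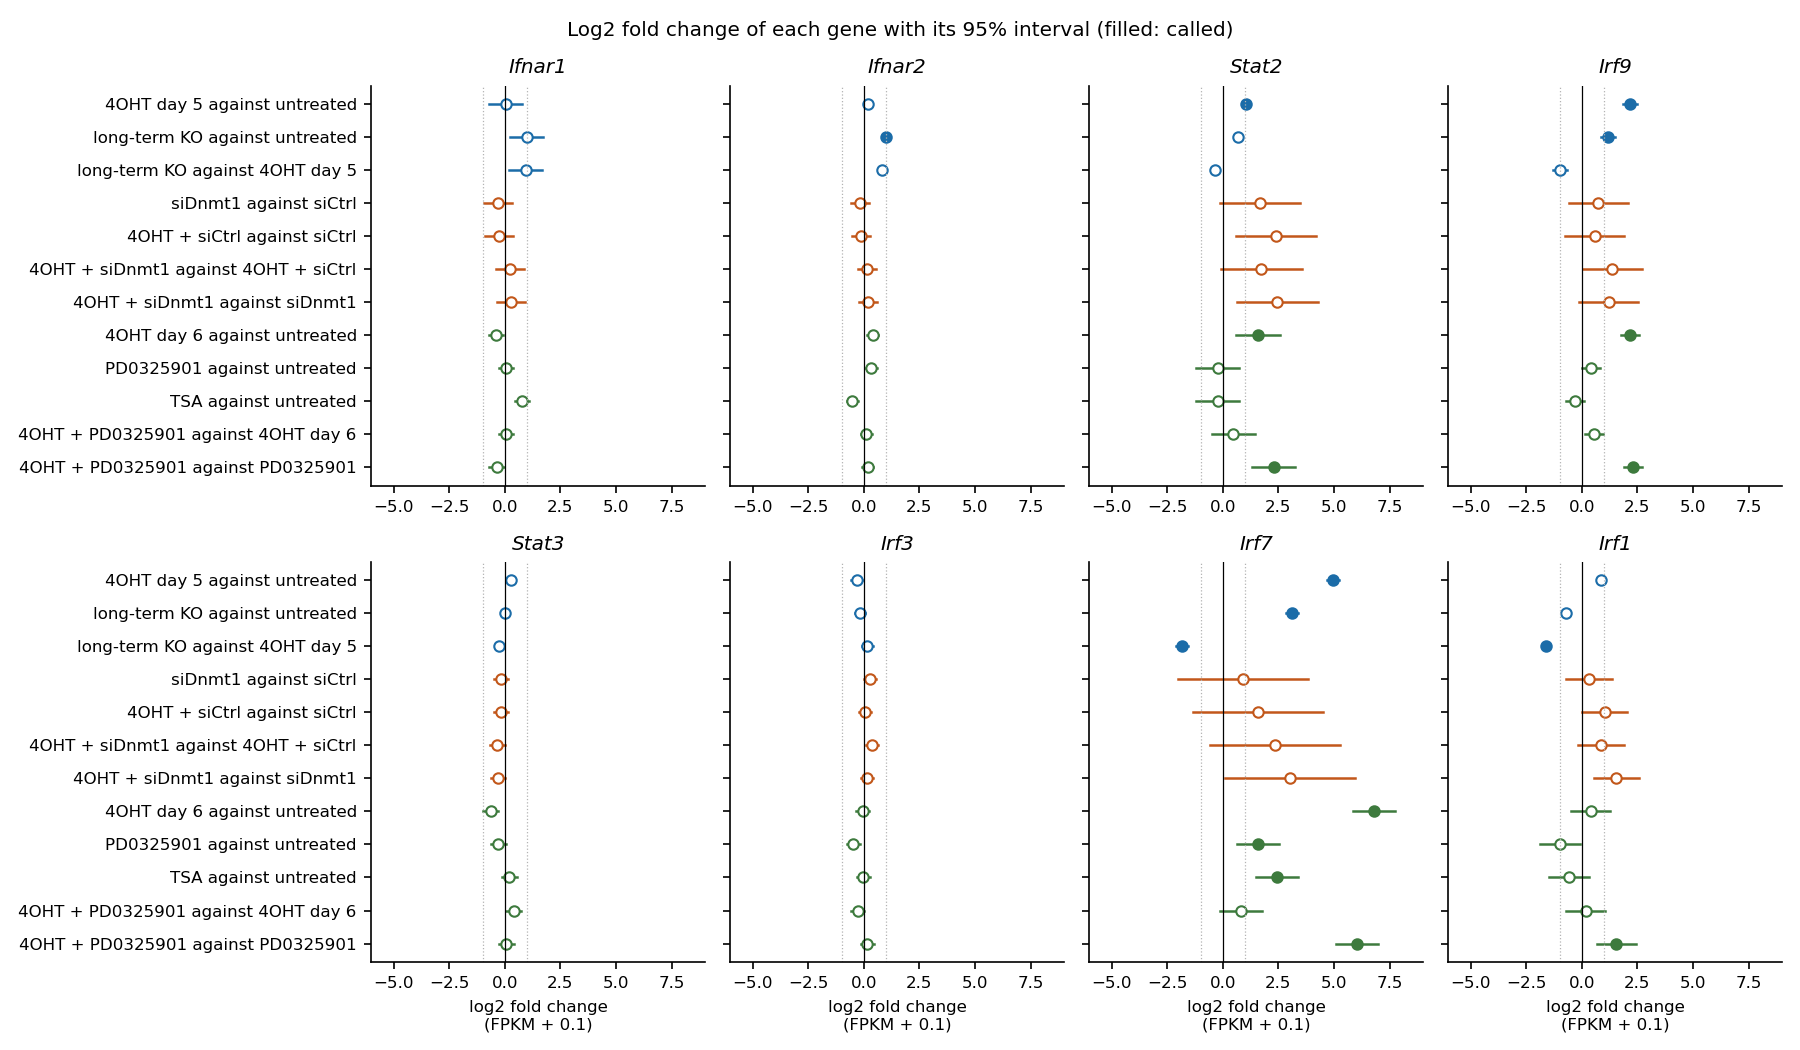
Log2 fold change of FPKM + 0.1 for the 8 genes in the 12 comparisons, with 95% intervals from limma; filled points were called, and dotted lines mark the 2-fold limit. *Irf7* reaches 6.79 at day 6 of 4OHT, and the siRNA intervals, such as −1.35 to 4.50 for *Irf7* with 4OHT + siCtrl, are the widest for this gene.

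The receptor chain *Ifnar1*, on its own row or the shared one, was 7.89, 13.1 and 12.5 FPKM in untreated total RNA libraries, 7.56, 13.5 and 12.8 FPKM at day 5, and 25.2, 26.4 and 14.8 FPKM in long-term KO libraries. Every long-term KO library lay above every other library, but replicate 3 only just so. The summed log2 fold change in long-term KO libraries was 0.98 (95% interval 0.24 to 1.72, limma adjusted p = 0.0250), short of the fold limit. It passed that limit without untreated replicate 2 (1.11), untreated replicate 3 (1.08) or long-term KO replicate 3 (1.24), at adjusted p within 0.0105 to 0.0806 over the alternatives. At day 5 it was 0.04 (limma adjusted p = 0.938). In siRNA libraries *Ifnar1* ranged from 6.86 to 12.3 FPKM with no call, both ends of the range coming from 4OHT + siDnmt1. In the inhibitor experiment it was 9.39 and 9.20 FPKM in untreated cells and 14.8 and 17.1 FPKM with TSA, a log2 difference of 0.77 (limma adjusted p = 0.00223) that fell short of the fold limit, while day 6 libraries had 7.13 and 7.07 FPKM.

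The second chain, *Ifnar2*, was 12.9, 13.4 and 13.3 FPKM in untreated cells, 14.1, 14.7 and 13.1 FPKM at day 5, and 23.4 FPKM in the long-term KO library with a row of its own. In long-term KO replicates 1 and 3 it shared its row with *Il10rb*, a chain of the interleukin-10 and interferon lambda receptors, at 42.5 and 38.6 FPKM. Summed, the pair was 20.1, 21.0 and 19.5 FPKM in untreated, 23.3, 24.5 and 21.4 FPKM in day 5 and 42.5, 42.0 and 38.6 FPKM in long-term KO libraries. Long-term KO libraries were thus the highest on the sum and, for the unshared row, on *Ifnar2* alone. On that row 23.4 FPKM was less than 2-fold above each untreated value, so *Ifnar2* alone was not shown to pass the limit. The summed pair rose by a log2 fold change of 1.02 (95% interval 0.88 to 1.16, limma adjusted p = 2.81e-06), close to the limit. It lay under the limit without untreated replicate 3 (0.99), without long-term KO replicate 1 (0.99), with a pseudocount of 1 (0.99) and with median-ratio scaling (0.94). In siRNA libraries *Ifnar2* ranged from 17.2 to 23.9 FPKM, both from 4OHT + siCtrl, with no call. The siDnmt1 pair (19.2 and 20.2 FPKM) lay below siCtrl (20.7 and 23.4 FPKM) and below 4OHT + siDnmt1 (22.3 FPKM in both). In inhibitor libraries it was 19.9 and 17.9 FPKM untreated, 13.6 and 12.7 FPKM with TSA and 24.1 and 25.7 FPKM at day 6, where the log2 differences of −0.52 (limma adjusted p = 0.00494) and 0.40 (limma adjusted p = 0.0354) fell short of the fold limit. *Ifnar1* was thus higher and *Ifnar2* lower with TSA, each by less than 2-fold.

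*Stat2*, whose product carries the signal from the receptor into the nucleus, was 2.82, 2.92 and 2.60 FPKM in untreated total RNA libraries. At day 5 it was 13.5 and 13.6 FPKM in replicates 2 and 3 and 21.5 FPKM in replicate 1 in a row shared with *Pan2*, and in long-term KO libraries it was 7.26, 5.48 and 8.10 FPKM. On rows of its own, *Stat2* was lowest in untreated, intermediate in long-term KO and highest in day 5 libraries, with no overlap. The sum with *Pan2*, which encodes a deadenylase subunit, was 9.86, 10.1 and 9.59 FPKM untreated, 21.5, 19.5 and 19.8 FPKM at day 5 and 15.7, 14.4 and 17.1 FPKM in long-term KO libraries. The sum kept that order, and its log2 fold change at day 5 was 1.03 (95% interval 0.88 to 1.19, limma adjusted p = 1.98e-05). It was just under the limit without day 5 replicate 1 (0.99), with a pseudocount of 1 (0.97) and with median-ratio scaling (1.00). In long-term KO libraries the sum had a log2 fold change of 0.67 (limma adjusted p = 4.91e-05), short of the limit. On the rows as they stand, an alternative chosen after seeing the data, the values were 2.47 at day 5 and 1.27 in long-term KO libraries, and both were called (limma adjusted p = 7.62e-05 and 0.000787, the highest over their alternatives being 0.00035 and 0.000787).

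In the siRNA experiment *Stat2* had a row of its own in every library. It was 7.56 and 5.45 FPKM with siCtrl, 21.0 and 20.03 FPKM with siDnmt1, 81.1 and 14.1 FPKM with 4OHT + siCtrl, and 138 and 92.1 FPKM with 4OHT + siDnmt1. The order ran from siCtrl to siDnmt1 to 4OHT + siDnmt1 without overlap, whereas the pair labelled 4OHT + siCtrl spanned both sides of siDnmt1. The deposited 95% interval of siCtrl replicate 1 ran from 3.22 to 11.9 FPKM, which covers the error of that estimate alone and not the spread between libraries. Among inhibitor libraries the *Stat2* row was 4.33 and 4.66 FPKM untreated, 8.59 and 12.1 FPKM with TSA, 4.43 and 5.27 FPKM with PD0325901, 25.0 and 68.8 FPKM at day 6, and, with 4OHT + PD0325901, 82.4 FPKM in replicate 2 and 51.3 FPKM in replicate 1, where it was joined to *Pan2*. All 4OHT libraries lay above all others. The sum with *Pan2* rose at day 6 by a log2 fold change of 1.58 (95% interval 0.61 to 2.56, limma adjusted p = 0.0310). That call was lost without untreated replicate 1 (limma adjusted p = 0.129), untreated replicate 2 (0.117) or day 6 replicate 2 (0.111), with no filter on low values (0.0543) and with only the compared groups in the fit (0.0644), in a range of 0.00331 to 0.129 over the alternatives. With PD0325901 in both arms, the sum rose with 4OHT by 2.29 (95% interval 1.32 to 3.26, limma adjusted p = 0.0184). Without PD0325901 replicate 1, PD0325901 replicate 2 or 4OHT + PD0325901 replicate 2, the adjusted p was 0.0648, 0.0672 and 0.0876, the last being the highest over the alternatives. On the row as it stands, *Stat2* rose by 3.18 at day 6 (limma adjusted p = 0.00331) and by 3.72 with 4OHT within PD0325901 (limma adjusted p = 0.00409), each the lowest adjusted p over its alternatives. TSA gave −0.22 on the sum and 1.16 on the row as it stands, neither of them called.

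*Irf9*, which encodes the DNA-binding partner of STAT2, was read with *Rnf31*, a subunit of a ubiquitin ligase, in every total RNA library. The pair was 8.40, 6.08 and 5.83 FPKM in untreated, 30.1, 30.9 and 29.8 FPKM in day 5 and 14.5, 14.7 and 16.5 FPKM in long-term KO libraries. The groups did not overlap, with day 5 highest and long-term KO between. The log2 fold change was 2.16 at day 5 (95% interval 1.86 to 2.46, limma adjusted p = 1.31e-05) and 1.18 in long-term KO libraries (95% interval 0.87 to 1.48, limma adjusted p = 9.01e-05). From day 5 to long-term KO it was −0.99 (limma adjusted p = 0.000262), short of the limit, which it passed without long-term KO replicate 3 (−1.05) and with median-ratio scaling (−1.03). In siRNA libraries the sum was 35.2 and 34.1 FPKM with siCtrl, 58.8 and 56.7 FPKM with siDnmt1, 99.7 and 27.1 FPKM with 4OHT + siCtrl, and 154 and 118 FPKM with 4OHT + siDnmt1. *Irf9* had a row of its own with siCtrl, at 28.4 and 27.5 FPKM, so most of the sum there was *Irf9*. In inhibitor libraries the sum was 15.02 and 16.6 FPKM untreated, 12.8 and 12.6 FPKM with TSA, 20.4 and 21.7 FPKM with PD0325901, 59.1 and 87.7 FPKM at day 6 and 102 and 108 FPKM with 4OHT + PD0325901. The groups with 4OHT lay above the others, and the sum rose with 4OHT by 2.18 at day 6 (95% interval 1.78 to 2.58, limma adjusted p = 0.000348) and by 2.31 with PD0325901 in both arms (limma adjusted p = 0.000679).

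*Stat3*, a STAT best known downstream of interleukin-6 family cytokines, was called in no comparison. It was 27.5, 28.6 and 28.0 FPKM in untreated, 33.9, 35.6 and 33.0 FPKM in day 5 and 28.0, 28.3 and 28.4 FPKM in long-term KO libraries. Day 5 libraries lay above the rest, by a log2 difference of 0.28 (limma adjusted p = 0.00051), well short of the fold limit. In siRNA libraries the range ran from 23.8 FPKM with 4OHT + siDnmt1 to 39.5 FPKM with siCtrl, and 4OHT within siDnmt1 gave −0.32 (limma adjusted p = 0.152). In the inhibitor experiment *Stat3* was 47.7 and 49.3 FPKM untreated and 27.5 and 35.3 FPKM at day 6, a log2 difference of −0.64 (95% interval −0.97 to −0.30, limma adjusted p = 0.0189) that also fell short. The other inhibitor groups were 56.7 and 54.5 FPKM with TSA, 38.2 and 40.5 FPKM with PD0325901 and 37.0 and 46.2 FPKM with 4OHT + PD0325901.

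*Irf3*, the constitutively expressed factor that acts first after nucleic acid sensing, was called in no comparison of all 3 experiments. Its values ran from 10.2 to 15.3 FPKM in total RNA libraries, where untreated replicate 1 was the highest, and all 3 day 5 libraries were below all untreated ones. The log2 difference at day 5 was −0.33 (limma adjusted p = 0.0383). In siRNA libraries it ran from 11.6 to 17.1 FPKM and was highest with 4OHT + siDnmt1. In inhibitor libraries it was 11.6 and 11.3 FPKM untreated and 7.81 and 8.69 FPKM with PD0325901, a log2 difference of −0.47 (limma adjusted p = 0.0482). Both differences fell short of the fold limit.

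*Irf7*, whose product drives the later wave of interferon alpha genes, covered the widest span of the 8 members. It was 0.411, 0.486 and 0.530 FPKM in untreated total RNA libraries, 16.3, 19.2 and 17.7 FPKM at day 5 and 4.28, 4.89 and 5.44 FPKM in long-term KO libraries. The groups did not overlap, with day 5 highest and long-term KO between, and the untreated values rested on 23.0 to 29.2 fragments implied by their deposited intervals. *Irf7* reached 1 FPKM only in day 5 and long-term KO libraries and passed the filter through them alone. Its tests against untreated cells come with that selection. The ratio of mean FPKM to untreated was 37.3 at day 5 and 10.2 in long-term KO libraries. On the log2 scale the rise was 4.96 at day 5 (95% interval 4.69 to 5.22, limma adjusted p = 7.06e-08) and 3.11 in long-term KO libraries (95% interval 2.85 to 3.37, limma adjusted p = 2.07e-07). Long-term KO libraries had fallen below day 5 by a log2 fold change of −1.85 (95% interval −2.11 to −1.59, limma adjusted p = 3.39e-06).

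In the inhibitor experiment *Irf7* was 1.59 and 1.23 FPKM untreated, 8.11 and 7.89 FPKM with TSA, 4.75 and 4.02 FPKM with PD0325901, 99.5 and 277 FPKM at day 6 and 266 and 321 FPKM with 4OHT + PD0325901. The order ran untreated, PD0325901, TSA and then the 4OHT groups, which overlapped each other and no other group. The ratio of mean FPKM to untreated was 133 at day 6, 5.68 with TSA and 3.11 with PD0325901. The log2 fold change was 6.79 at day 6 (95% interval 5.84 to 7.74, limma adjusted p = 0.000115), 2.43 with TSA (95% interval 1.49 to 3.38, limma adjusted p = 0.00158) and 1.58 with PD0325901 (95% interval 0.63 to 2.52, limma adjusted p = 0.0418). The PD0325901 call was lost without either untreated library (limma adjusted p = 0.128 and 0.208), either TSA library (0.0645 and 0.0648), either PD0325901 library (0.169 and 0.0930) or either 4OHT + PD0325901 library (0.0570 and 0.0573), in a range of 0.00279 to 0.208 over the alternatives. With PD0325901 in both arms *Irf7* rose with 4OHT by 6.03 (95% interval 5.08 to 6.98, limma adjusted p = 0.000390). With 4OHT in both arms the log2 difference for PD0325901 was 0.82 (limma adjusted p = 0.286), and without day 6 replicate 2 it was 1.55 and called (limma adjusted p = 0.0150, in a range of 0.0150 to 0.879 over the alternatives). The interaction of the treatments was −0.76 (limma adjusted p = 0.573), so a difference in the response to 4OHT with and without PD0325901 was not shown.

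In the siRNA experiment *Irf7* was 21.2 and 21.5 FPKM with siCtrl, 41.9 and 39.4 FPKM with siDnmt1, 279 and 14.6 FPKM with 4OHT + siCtrl, and 369 and 290 FPKM with 4OHT + siDnmt1. The siDnmt1 pair lay above siCtrl and below 4OHT + siDnmt1, while the 4OHT + siCtrl pair held a value near the top and the lowest of the experiment. With every library in the fit the log2 fold change was 0.93 for siDnmt1 (limma adjusted p = 0.677), 1.58 for 4OHT + siCtrl (95% interval −1.35 to 4.50, limma adjusted p = 0.408) and 3.01 for 4OHT within siDnmt1 (95% interval 0.08 to 5.93, limma adjusted p = 0.138). *Stat2* gave 1.66, 2.38 and 2.46 in the same comparisons (limma adjusted p = 0.228, 0.0840 and 0.0752), and *Irf9* with *Rnf31* gave 0.74, 0.59 and 1.22 (limma adjusted p = 0.445, 0.497 and 0.172).

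Without 4OHT + siCtrl replicate 2, more members passed, the lone library left being assumed to vary like the other groups. Of the 8 members, 3 were then called for 4OHT + siCtrl against siCtrl, beside 9.83% of 10534 genes. They were *Irf7* at a log2 fold change of 3.70 (limma adjusted p = 0.000445), *Stat2* at 3.64 (0.00226) and *Irf9* with *Rnf31* at 1.52 (0.00442). For 4OHT within siDnmt1, 4 were called beside 9.12% of genes, namely *Irf7*, *Stat2*, *Irf9* and *Irf1* (limma adjusted p = 0.000339, 0.00364, 0.00438 and 0.0407). For siDnmt1 against siCtrl *Stat2* alone was called (limma adjusted p = 0.0102), beside 8.07% of genes. For siDnmt1 with 4OHT in both arms limma called 0 members, beside 3.01% of genes called and 2502 at an unadjusted p under 0.05, and *Irf7* differed by 0.23 (limma adjusted p = 0.401). Without replicate 1 in place of replicate 2, 4OHT + siCtrl against siCtrl gave −0.55 for *Irf7* and −0.35 for *Irf9*, and 1.13 for *Stat2*, which was called (limma adjusted p = 0.0452). In that setting siDnmt1 with 4OHT in both arms gave 4.48 for *Irf7*, 2.99 for *Stat2* and 2.31 for *Irf9*, all called (limma adjusted p = 0.000179, 0.00397 and 0.00159), which is 3 of 8 members beside 8.23% of 10554 genes, and 10.5% of genes were called for 4OHT + siCtrl against siCtrl. For siDnmt1 against siCtrl 1 member and for 4OHT within siDnmt1 4 were called in that setting, as without replicate 2, beside 8.05 and 9.12% of genes. The interaction for *Irf7* was 1.43 with all libraries (limma adjusted p = 0.808), −0.69 without replicate 2 (0.162) and 3.56 without replicate 1 (0.00166), so its sign rested on which library was kept. Without replicate 1 the interaction was called for 2 of 8 members, *Irf7* and *Irf9*, beside 4.53% of genes. Over all alternatives the adjusted p of that interaction ran from 0.00166 to 0.966.

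**Figure D4:**
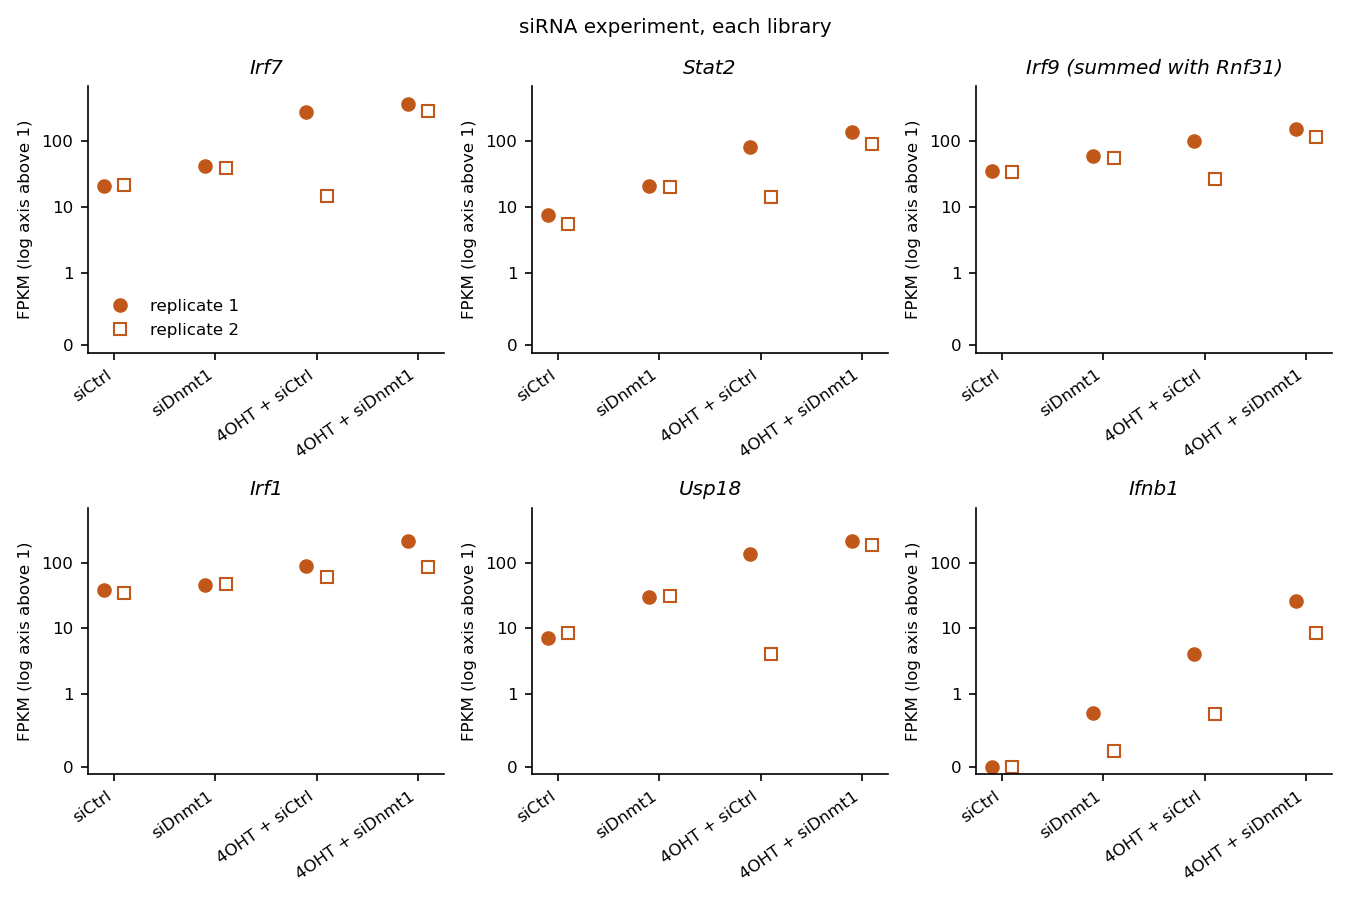
FPKM (log axis above 1) of *Irf7*, *Stat2*, *Irf9* summed with *Rnf31*, *Irf1*, *Usp18* and *Ifnb1* in the 8 siRNA libraries, by group; filled circles are replicate 1 and open squares replicate 2. In 4OHT + siCtrl *Irf7* is 279 FPKM in replicate 1 and 14.6 FPKM in replicate 2.

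*Irf1*, a factor induced by interferon gamma and by inflammatory cytokines, took its own course. It was 43.2, 42.3 and 40.2 FPKM in untreated, 77.4, 75.1 and 79.1 FPKM in day 5 and 25.1, 24.8 and 25.7 FPKM in long-term KO libraries. The groups did not overlap, and long-term KO libraries were below untreated ones where *Irf7*, *Irf9* and *Stat2* were above. Against untreated cells the log2 difference was 0.88 at day 5 (95% interval 0.80 to 0.96, limma adjusted p = 1.54e-06) and −0.73 in long-term KO libraries (95% interval −0.81 to −0.65, limma adjusted p = 1.10e-06), both short of the fold limit. From day 5 to long-term KO *Irf1* fell by 1.61 on the log2 scale (95% interval −1.70 to −1.53, limma adjusted p = 2.62e-08). In siRNA libraries it was 38.6 and 34.5 FPKM with siCtrl, 45.4 and 46.9 FPKM with siDnmt1, 91.2 and 60.5 FPKM with 4OHT + siCtrl and 217 and 85.2 FPKM with 4OHT + siDnmt1. Both 4OHT groups lay above the groups without 4OHT, and they overlapped each other. The log2 fold change was 1.02 for 4OHT + siCtrl against siCtrl (limma adjusted p = 0.155), called without 4OHT + siDnmt1 replicate 1 or replicate 2 (limma adjusted p = 0.0413 and 0.0412). Its adjusted p ran from 0.0412 to 0.425 over the alternatives. Within siDnmt1 it was 1.56 for 4OHT (limma adjusted p = 0.0597), and 2.23 and called without 4OHT + siDnmt1 replicate 2 (limma adjusted p = 0.0229, in a range of 0.0229 to 0.236).

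Across the inhibitor experiment *Irf1* was 49.5 FPKM in both untreated libraries, 35.7 and 31.2 FPKM with TSA, 19.4 and 31.9 FPKM with PD0325901, 43.2 and 98.4 FPKM at day 6 and 62.8 and 85.7 FPKM with 4OHT + PD0325901. Both inhibitors alone lay below untreated cells, and the day 6 pair stood on either side of them. The log2 fold change was 0.40 at day 6 (limma adjusted p = 0.491) and −0.99 with PD0325901 (limma adjusted p = 0.135). With PD0325901 in both arms *Irf1* rose with 4OHT by 1.56 (95% interval 0.67 to 2.45, limma adjusted p = 0.0492). This call was lost without either untreated library (limma adjusted p = 0.0890 each), TSA replicates 1 and 2 (0.0734 and 0.0739), PD0325901 replicates 1 and 2 (0.159 and 0.0768) or 4OHT + PD0325901 replicates 1 and 2 (0.0878 and 0.171), in a range of 0.0156 to 0.171 over the alternatives.

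The other genes of the pathway were read from lists of receptors and kinases, other *Irf* and *Stat* genes, ligands, upstream sensors and adaptors, inhibitors and target genes. The target list holds 20 genes and gave 19 tested values, since *Ifit2* and *Ifit3* shared a row and counted once. At day 5, 18 of 19 interferon-stimulated target genes rose and none fell, with a median log2 fold change of 4.76 beside 0.00 for all genes. The largest were *Oasl2* (5.88), *Rsad2* (5.48), *Rtp4* (5.30) and *Ifit1* (5.20), which encode antiviral proteins or their regulators. Of 12 upstream genes the RNA sensors *Ifih1* (3.43), *Dhx58* (3.12) and *Ddx58* (2.22) rose, and among 9 inhibitors *Usp18* rose (4.83). None of 5 receptor and kinase genes and none of 4 other *Irf* and *Stat* genes was called by limma at day 5, where 4035 of all genes had an unadjusted p under 0.05, and their median log2 fold changes were 0.24 and 0.16. *Usp18* was 0.171, 0.216 and 0.152 FPKM untreated, 8.28, 8.07 and 7.05 FPKM at day 5 and 2.08, 1.86 and 2.09 FPKM in long-term KO libraries, the same order as *Irf7*. Like *Irf7*, it passed the filter of 1 FPKM through day 5 and long-term KO libraries alone.

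In long-term KO libraries 15 of the 19 targets rose against untreated cells (median 1.81 beside 0.07), among them *Oas1a* summed with *Oas1g* (4.48), *Rtp4* (2.98), *Oasl2* (2.94) and *Psmb9* (2.54). From day 5 to long-term KO 15 of the 19 fell (median −2.50 beside 0.04), led by *Rsad2* (−3.90) and *Cxcl10* (−3.67). The sensors *Ifih1* (−2.26), *Dhx58* (−2.09) and *Ddx58* (−1.35) fell with them. Against untreated cells the row of the upstream kinase *Tbk1* summed with *Xpot* fell in long-term KO libraries (−1.19), although *Tbk1* on rows of its own was 18.1 FPKM in 1 untreated and 15.1 FPKM in both such long-term KO libraries. The sensors *Ifih1* (1.17) and *Dhx58* (1.03) rose. Among the inhibitors *Usp18* rose (2.92), as did the phosphatase *Ptpn6* summed with *Grcc10* (1.39), with *Ptpn6* on rows of its own at 1.48, 1.53 and 1.61 FPKM untreated and at 9.59 and 8.54 FPKM in long-term KO libraries. No gene of the receptor list or of the other *Irf* and *Stat* genes was called by limma in long-term KO libraries, where 6152 of all genes had an unadjusted p under 0.05 against untreated cells and 6050 against day 5.

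None of 19 ligand genes passed the filter in total RNA. *Ifnb1*, the interferon beta gene, was listed at 0 in all untreated and long-term KO libraries and was 0.0778, 0.0798 and 0.165 FPKM at day 5. In siRNA libraries *Ifnb1* was listed at 0 in both siCtrl libraries and was 0.738 and 0.214 FPKM with siDnmt1, 4.08 and 0.727 FPKM with 4OHT + siCtrl and 26.2 and 8.54 FPKM with 4OHT + siDnmt1. In inhibitor libraries it was listed at 0 without 4OHT and was 1.01 and 2.03 FPKM at day 6 and 3.41 and 2.51 FPKM with 4OHT + PD0325901. *Ifnb1* was thus highest with 4OHT + siDnmt1 among the siRNA groups and in the other experiments was above 0 solely at day 5 or day 6 of 4OHT, with or without PD0325901. *Ifnb1* was called with 4OHT + siCtrl against siCtrl (limma adjusted p = 0.0351), with 4OHT within siDnmt1 (0.0281), at day 6 (0.000576) and with 4OHT within PD0325901 (0.000472). The first of these calls was not made without 4OHT + siCtrl replicate 1. *Ifnb1* reached 1 FPKM only in libraries given 4OHT and passed the filter through them alone. Where the controls were listed at 0, a call therefore describes detection and is no test of a rise. Within siDnmt1, where the control libraries were above 0, the log2 fold change of *Ifnb1* was 4.88, and no fold is given for the other 3 comparisons, whose controls were listed at 0.

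The siRNA lists depended on the 4OHT + siCtrl pair. With all libraries in the fit, 2 of 19 targets rose with 4OHT + siCtrl, *Rsad2* (3.93) and *Cxcl10* (3.41), and 3 with 4OHT within siDnmt1, *Mx1* (4.68), *Rsad2* (4.22) and *Cxcl10* (3.61), with medians of 2.03 and 2.94 beside 0.08 and 0.14 for all genes. For siDnmt1 against siCtrl limma called 0 of 19 targets, with 2750 of all genes at an unadjusted p under 0.05, although all 19 had a positive log2 fold change (median 1.34 beside −0.09). In the interaction of 4OHT and siDnmt1 the median over targets was 0.86 with all libraries. It was −0.93 without 4OHT + siCtrl replicate 2 and 2.63 without replicate 1, beside 0.07 for all genes each time. Its sign thus rested on which library was kept. Without 4OHT + siCtrl replicate 2 the targets called were 11 for siDnmt1, 18 for 4OHT + siCtrl and 18 for 4OHT within siDnmt1, and limma called 0 for siDnmt1 within 4OHT, where 2502 of all genes had an unadjusted p under 0.05. Without replicate 1 in its place they were 11, 2, 18 and 18, so leaving out either library gave the same counts for siDnmt1 and for 4OHT within siDnmt1, and different ones for the comparisons that use the pair. Among the inhibitors *Socs3*, a cytokine-induced suppressor, fell with 4OHT + siCtrl (−1.39, limma adjusted p = 0.0042), from 19.6 and 24.1 FPKM to 7.70 and 8.77 FPKM. It fell without either library of the pair as well. Upstream, *Ikbke* (1.60), *Mb21d1* (1.36) and *Myd88* (1.13) rose with 4OHT within siDnmt1, and limma called 0 of 12 upstream genes with 4OHT + siCtrl, where 3456 of all genes had an unadjusted p under 0.05. Without replicate 2, 6 of 12 rose with 4OHT within siDnmt1, led by *Ifih1* (2.49) and *Dhx58* (2.43), 4 with 4OHT + siCtrl and 2 with siDnmt1. Without replicate 1 these were 6, 1 and 2, and 4 rose with siDnmt1 within 4OHT. *Irf5*, a further member of the IRF family, was listed at 0 in both siCtrl libraries. It was 9.32 and 8.42 FPKM with siDnmt1, 16.8 and 9.05 FPKM with 4OHT + siCtrl and 40.9 and 29.0 FPKM with 4OHT + siDnmt1. With 4OHT within siDnmt1 *Irf5* rose by 1.95 (limma adjusted p = 0.0215). The 2 comparisons with siCtrl were called too, but a listed 0 can be a failed estimate, so they describe detection and no fold is given.

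At day 6 all 19 targets rose (median 6.03), led by *Oas1a* summed with *Oas1g* (9.0), *Mx2* (7.83), *Ifi44* (7.43) and *Rsad2* (7.01). The median over targets was 5.13 in replicate 1 and 6.53 in replicate 2, and *Irf7* was likewise higher in replicate 2. *Dhx58* (5.16), *Ifih1* (4.07), *Ddx58* (3.15) and *Mb21d1* (1.41) rose among the upstream genes, *Usp18* rose (8.29) and *Socs3* fell (−1.69) among the inhibitors, while *Irf8* (1.34) and *Irf5* rose and *Stat5a* fell (−1.20) among the other *Irf* and *Stat* genes. Between the PD0325901 groups 18 of 19 targets (median 5.87 beside 0.09 for all genes) and 5 of 12 upstream genes rose with 4OHT. With 4OHT in both arms PD0325901 gave 0 calls by limma in each list, with 2557 of all genes at an unadjusted p under 0.05. All 19 targets had a positive log2 fold change (median 0.70 beside 0.04), but they were read in the same libraries and are not separate replicates. The median over targets against untreated was 6.00 and 6.56 in 4OHT + PD0325901 libraries, so day 6 replicate 2, at 6.53, lay close to them. With PD0325901 alone *Rtp4* (1.29) of the 19 targets and *Usp18* (2.21, limma adjusted p = 0.0331) rose, and *Tmem173*, which encodes the adaptor STING, fell (−1.67). *Usp18* was 0.0452 to 0.299 FPKM untreated, around the pseudocount of 0.1 FPKM. It was 0.835 to 1.23 FPKM with PD0325901, 3.49 to 4.45 FPKM with TSA and 48.9 to 116 FPKM at day 6. The size of its log2 fold changes against untreated cells thus depends on the pseudocount.

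TSA moved the pathway in mixed directions. The receptor kinases *Jak2* (1.24) and *Jak1* (1.2) rose, from 9.79 and 9.43 FPKM to 23.0 and 22.6 FPKM for *Jak2* and from 32.4 FPKM in both untreated libraries to 66.6 and 83.0 FPKM for *Jak1*. *Irf8* rose (5.15), while *Stat6* (−2.44) and *Stat5b* (−1.77) fell. The upstream genes *Tmem173* (−2.31), *Myd88* (−1.12) and *Mb21d1* (−1.08) fell. Of the 19 targets *Psmb9* (4.10) and *Cxcl10* (3.19) rose and *Ifit1* fell (−3.08), with a median of 0.63 beside 0.10. *Irf7* and *Usp18* (4.07, from the low untreated level given above) thus rose with TSA while most targets were not called. In that comparison 32.1% of all genes were called and the markers of haematopoietic and epithelial cells given above were also higher.

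**Figure D5:**
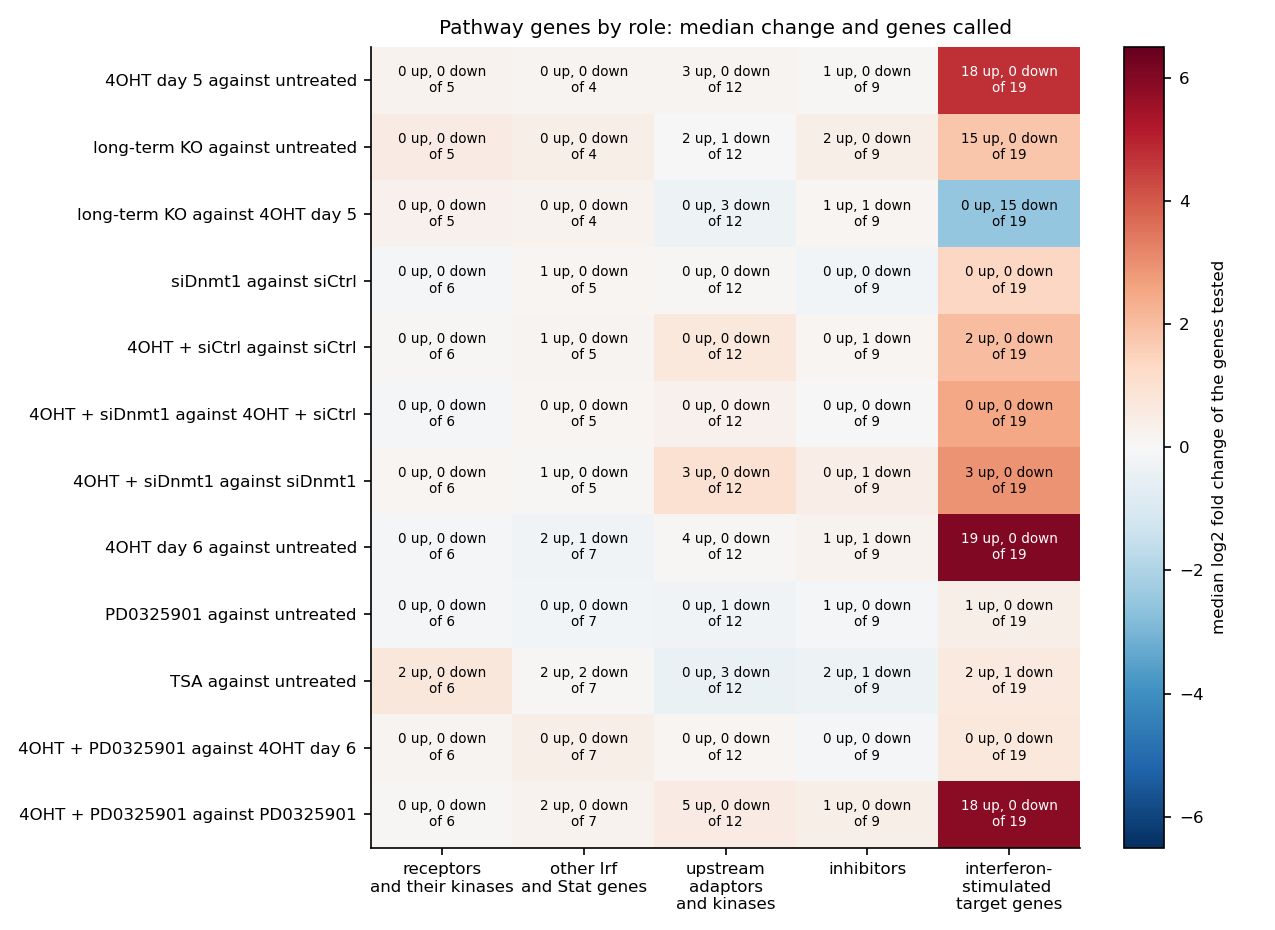
Median log2 fold change (colour) and number of genes called higher and lower of those tested, for 5 lists of pathway genes in the 12 comparisons. The target list has 18 of 19 genes higher at day 5, 19 of 19 at day 6 and 15 of 19 lower from day 5 to long-term KO.

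Over the 12 groups, with log2 values centred within each experiment, the genes most like *Irf7* among 8318 were *Usp18* (Pearson's r = 0.988), *Oas1b* (0.981) and *Cmpk2* (0.981). Those most like *Stat2* were *Zbtb21* (0.982), *Dcaf15* (0.962) and *Trim26* (0.961), and those most like *Irf1* were *Abhd6* (0.985), *Casp4* (0.958) and *Relb* (0.956). Among the members, *Irf7* and *Irf9* had r = 0.949, *Irf9* and *Stat2* 0.849, *Irf1* and *Stat2* 0.827 and *Irf7* and *Stat2* 0.814. *Stat2* and *Stat3* had r = −0.605, and the receptor chains *Ifnar1* and *Ifnar2* −0.0543. These values use the summed rows where a pair was joined. *Stat2* thus stands for its sum with *Pan2* in total RNA and inhibitor libraries, and *Irf9* for its sum with *Rnf31* throughout. In total RNA libraries *Ifnar1* and *Ifnar2* stand for their sums with *A930006K02Rik* and *Il10rb*. Likeness on the rows of these genes alone was not tested. Each group entered as its mean log2 value, including the siRNA pair that stood apart. The values describe these 12 groups, which share experiments and controls.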

How the data were processed

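FPKM values were the authors' own, deposited per library. By the submitters' processing notes, reads were aligned with TopHat2 2.0.12 and quantified with Cufflinks on mm9. The authors' 2 deposited tables of Cuffdiff fold changes, p-values and q-values were not used. Fragments implied by the deposited intervals came to a median of 37.9 M per total RNA, 14.7 M per siRNA and 12.2 M per inhibitor library, which limits precision for low genes.

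Members were read by gene symbol in siRNA and inhibitor libraries. In total RNA they were read from the locus covering at least 95% of the gene. Pairs joined in any library of an experiment were summed throughout it. Genes were tested if at least 3 total RNA libraries, or 2 libraries of the other experiments, held 1 FPKM or more. Values of log2(FPKM + 0.1) went into limma 3.58.1 (R 4.3.3) with trended variances and two-sided tests, all groups of an experiment sharing 1 fit and Benjamini-Hochberg adjustment over all genes tested. A call needed an adjusted p under 0.05 and at least a 2-fold change. Tables and figures were made with Python 3.11.15, pandas 2.3.3 and matplotlib 3.10.9, and the fits were tested on simulated data.

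Members and gene lists were chosen with earlier results of these data known. Genes named were the 8 members, *Setdb1*, *Dnmt1*, *Rnf31*, *Ifnb1* and *Usp18*, up to 4 called genes of each pathway list with the largest log2 fold change in a comparison, and the 3 genes most like *Irf7*, *Stat2* and *Irf1*. Other neighbours sharing a row, single marker genes and *Irf5* in groups beyond that rule were named after their values were seen. The alternatives were other pseudocounts, filters, scaling and fits, a replicate block, a 50% locus cover, a call on adjusted p alone, *Irf9* on its row as it stands and each library left out. All members on their rows as they stand was an alternative chosen after seeing the data. For some genes of the lists, no result is reported here.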

Additional observations from a re-analysis of the deposited data

Results flagged for a closer look

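The effect against untreated cells differed between long-term KO and day 5 libraries for *Irf1*, by −1.61 on the log2 scale, and for *Irf7*, by −1.85, each tested directly by limma as long-term KO against day 5. For *Irf1* the effect changed sign between the times, while for *Irf7* it was smaller in long-term KO libraries.

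*Stat3* had log2 differences of opposite sign with 4OHT in different experiments, all short of the fold limit. Every day 5 library lay above every untreated one in total RNA (log2 difference 0.28), and every 4OHT + siCtrl library lay below every siCtrl one (−0.17, 95% interval −0.49 to 0.16, limma adjusted p = 0.425). With 4OHT within siDnmt1 the difference was −0.32 (95% interval −0.64 to 0.00591, limma adjusted p = 0.152). Likewise every day 6 library lay below every untreated one in the inhibitor experiment (−0.64). With 4OHT within PD0325901 the difference was 0.07 (limma adjusted p = 0.816), and its interaction was 0.71 (unadjusted p = 0.00972, limma adjusted p = 0.174). The difference between the experiments was not tested, and they differ in library type and time. No group had 4 or more libraries, so single libraries could not be tested as outliers.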

How the results depend on the processing

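Of 2046 values of the members under an alternative, 1914 kept their direction and side of the threshold, 55 newly passed it, 37 no longer passed it and 40 changed sign. None of those 40 was called with the sign it took or with all libraries in the fit, although some of the same results, such as *Irf7* with 4OHT + siCtrl, were called with another library left out. Causes were not tested unless the alternative itself changes what is counted.

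A call on the adjusted p alone, which drops the fold limit, called 7 of 8 members at day 5, beside 37.2% of genes. It called 6 in long-term KO libraries, beside 67.9% of genes, and 7 for long-term KO against day 5, beside 66.4%. At day 6 it called 5 beside 25.0%, with PD0325901 2 beside 13.7% and with TSA 3 beside 55.8%. It called 3260, 5942, 5816, 2833, 1553 and 6316 genes in these comparisons, 845 for siDnmt1, 1454 for 4OHT + siCtrl, 1447 for 4OHT within siDnmt1, 779 for PD0325901 within 4OHT and 934 for 4OHT within PD0325901.

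With no filter on low values, 494 genes were called at day 5, 234 for siDnmt1 within 4OHT and 50 for its interaction, and the call of *Irf7* with PD0325901 was lost. A filter at 5 FPKM gave 188, 785, 697, 287, 78, 387 and 12 genes for day 5, long-term KO, long-term KO against day 5, siDnmt1, siDnmt1 within 4OHT, 4OHT within siDnmt1 and the siDnmt1 interaction. A pseudocount of 1 gave 835 genes in long-term KO libraries and 32 for the siDnmt1 interaction, and the call of *Irf7* with PD0325901 was lost here too. With only the compared groups in the fit, 1 member was called for siDnmt1, beside 8.59% of genes, and 3 for 4OHT within siDnmt1, beside 8.15% of genes. Calls were lost in this setting at day 6, where 2 members were called beside 10.7% of genes. The same held for 4OHT within PD0325901, where 3 were called beside 2.75% of genes. The genes called were 872 for siDnmt1, 177 for 4OHT + siCtrl, 28 for siDnmt1 within 4OHT, 101 for PD0325901 within 4OHT and 278 for 4OHT within PD0325901. With the rows as they stand, chosen after seeing the data, 4 members were called for long-term KO against day 5, beside 12.9% of genes. *Stat2* (−1.19) fell and *Ifnar2* (1.26) rose in addition. These values mix rows, since 2 long-term KO rows of *Ifnar2* also held *Il10rb* and 1 day 5 row of *Stat2* also held *Pan2*. The summed pairs gave 0.83 for *Ifnar2* and −0.36 for *Stat2*, neither of them called.

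Samples were treated as sharing only a replicate number, since in no experiment did every pair of groups pass a correlation of 0.1 between same-numbered deviations. These ran from −0.03 to 0.12 in total RNA and −0.06 to 0.02 in siRNA libraries. In inhibitor libraries they were −0.03 to 0.04 for pairs with untreated or TSA, but 0.228, 0.206 and 0.259 among PD0325901, 4OHT day 6 and 4OHT + PD0325901, a hint from the data that these 3 groups share structure by number. With the replicate block no call of a member changed, and the genes called went to 78 for siDnmt1 within 4OHT and 13 for its interaction.

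Signs changed with median-ratio scaling for *Stat3* in long-term KO libraries (−0.0704), *Irf3* with 4OHT + siCtrl (−0.0245) and 4OHT within siDnmt1 (−0.00907), *Stat2* in the siDnmt1 interaction (−0.0128), *Stat3* with 4OHT within PD0325901 (−0.0434) and *Ifnar1* in the PD0325901 interaction (−0.12). On rows as they stand they changed for *Irf9* with TSA (0.37) and in the PD0325901 interaction (−0.13), and for *Stat2* with PD0325901 (0.10) and TSA (1.16).

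Leaving out 1 library gave 2 to 3 members and 266 to 295 genes at day 5, 2 to 4 and 1091 to 1226 for long-term KO, 2 to 4 and 982 to 1109 for long-term KO against day 5, 0 to 1 and 73 to 850 for siDnmt1, 0 to 3 and 77 to 1109 for 4OHT + siCtrl, 0 to 3 and 53 to 869 for siDnmt1 within 4OHT, 0 to 4 and 48 to 962 for 4OHT within siDnmt1 and 0 to 2 and 11 to 478 for their interaction. It gave 2 to 3 and 665 to 1288 at day 6, 0 to 1 and 336 to 865 with PD0325901, 1 and 2507 to 3652 with TSA, 0 to 1 and 273 to 454 for PD0325901 within 4OHT, 2 to 4 and 277 to 541 for 4OHT within PD0325901, and 0 members and 32 to 170 genes for their interaction. A pair reduced to 1 library is assumed to vary like the other groups.

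Log2 values that changed sign this way ranged from −0.19 to 0.30 for *Ifnar1* at day 5 and −0.00267 to 0.0239 for *Stat3* in long-term KO libraries. With 4OHT + siCtrl they ranged from −0.00889 to 0.11 for *Irf3*, −0.55 to 3.70 for *Irf7*, −0.35 to 1.52 for *Irf9* and −0.35 to 0.11 for *Ifnar2*. For siDnmt1 within 4OHT the ranges were −0.17 to 0.66 for *Ifnar1* and −0.10 to 0.37 for *Ifnar2*, and for 4OHT within siDnmt1 −0.14 to 0.69 for *Ifnar1*. Their interaction ran from −0.14 to 1.21 for *Irf1*, −0.69 to 3.56 for *Irf7*, −0.30 to 1.57 for *Irf9*, −1.18 to 1.33 for *Stat2* and −0.33 to 0.0310 for *Stat3*. *Irf1* at day 6 ran from −0.19 to 0.99, *Ifnar1* with PD0325901 from −0.0677 to 0.17, *Irf1* and *Stat2* with PD0325901 within 4OHT from −0.42 to 0.76 and −0.17 to 1.12, and *Stat3* with 4OHT within PD0325901 from −0.0895 to 0.23. The PD0325901 interaction ran from −0.15 to 0.41 for *Irf9* and −0.11 to 0.13 for *Ifnar1*.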
